A study of Drosophila melanogaster with 10 samples.

Results

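The gut digestive enzyme genes of Drosophila were followed here in RNA-seq libraries of dissected oenocytes, the cells under the abdominal cuticle that make cuticular hydrocarbons. Members were all listed genes whose FlyBase symbol starts with Jon and a digit, Mal-A, Mal-B or Amy-, ends in Try, is LManII or magro, or is Lys followed by 1 capital letter. The rule names 48 genes, and 47 of the 13986 genes in the tables were members: 11 trypsins, 16 Jonah proteases, 2 amylases, 10 maltases, 6 lysozymes, and LManII and mag as single genes. Of these, 46 matched by symbol, and mag (magro) matched by its RefSeq synonym, whereas LysC was not analysed here.

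All flies carried the oenocyte driver prom-E800-Gal4 and were raised at 25 °C until eclosion and then kept at 29 °C for 7 days. The RNAi and overexpression genotypes were oeno>fru IR (fru-RNAi stock VDRC330035), oeno>fru IR-2 (BDSC 31593) and oeno>fru IR-3 (VDRC105005), 3 hairpin lines against the transcription factor gene fru, and oeno>fru OE (UAS-FruCOMB), which overexpresses a Fru isoform. Libraries of the first pair of lines are called IR-labelled and IR-2-labelled, because their fru transcript level went against the label. The control carried UAS-mCD8-GFP and no hairpin. Each genotype had 2 libraries of polyadenylated RNA from adult males, 10 in all, with 23415354 to 46840820 expected counts per library. Levels below are the authors' TMM-rescaled TPM, an abundance per transcript length made comparable between libraries, and are called TMM values. With 2 libraries per genotype, p-values measure the spread between those 2 only.

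Digestion in the fly midgut depends on secreted enzymes. Trypsins and the chymotrypsin-like Jonah proteases cut dietary protein, amylases cut starch, maltases (alpha-glucosidases) release glucose from short sugars, magro is a secreted lipase, and lysozymes digest bacteria. Enterocytes, the absorptive cells of the midgut, express most of these genes, while oenocytes are known for making very long chain lipids. In a bulk library, fewer cells of a type and less RNA per cell cannot be told apart.

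The targeted gene and the tissue markers were read first. Transcripts of fru had TMM values of 3.66 and 3.55 in IR-labelled libraries, 7.29 and 7.32 in IR-2-labelled libraries, 1.60 and 1.62 in oeno>fru IR-3, 43.5 and 43.3 in oeno>fru OE, against 2.26 and 2.34 in control. It was thus above control in 2 of the 3 lines meant to lower it, and the directions below are those of the libraries as labelled. The study reports loss of Fru antibody staining in oenocytes with fru RNAi, a protein measure that these RNA levels do not address. It also measured fru by RT-qPCR with a whole-body driver, and reports that RNAi lines differed in knockdown efficiency. Cyp4g1, the oenocyte P450 that makes hydrocarbons, had TMM values of 8951 to 80361 in the RNAi and OE libraries, against 53859 and 54203 in control. The gut regulators GATAe and lab did not exceed 0.596 in any library. Summed over 12 midgut structure and regulator genes, the level was 32.3 to 58.4 in the RNAi and OE libraries, against 37.6 and 38.7 in control.

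Digestive enzyme transcripts were detected in every library. The 47 members together summed to 522 to 2615 TMM in the RNAi and OE libraries, against 512 and 558 in control, and a list of 8 oenocyte genes summed to 17439 to 94838, against 66670 and 67122 in control. Of the 47 members, 9 reached 100 TMM in at least 1 library, 19 stayed under 10 in all, and 5 were listed at 0 in at least 1. The highest value of any member was 1172, for Mal-B2 in oeno>fru IR-3 replicate 2. The highest library of a member was IR-2-labelled replicate 2 for 35 members and oeno>fru IR-3 replicate 2 for 7 members.

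**Figure D1:**
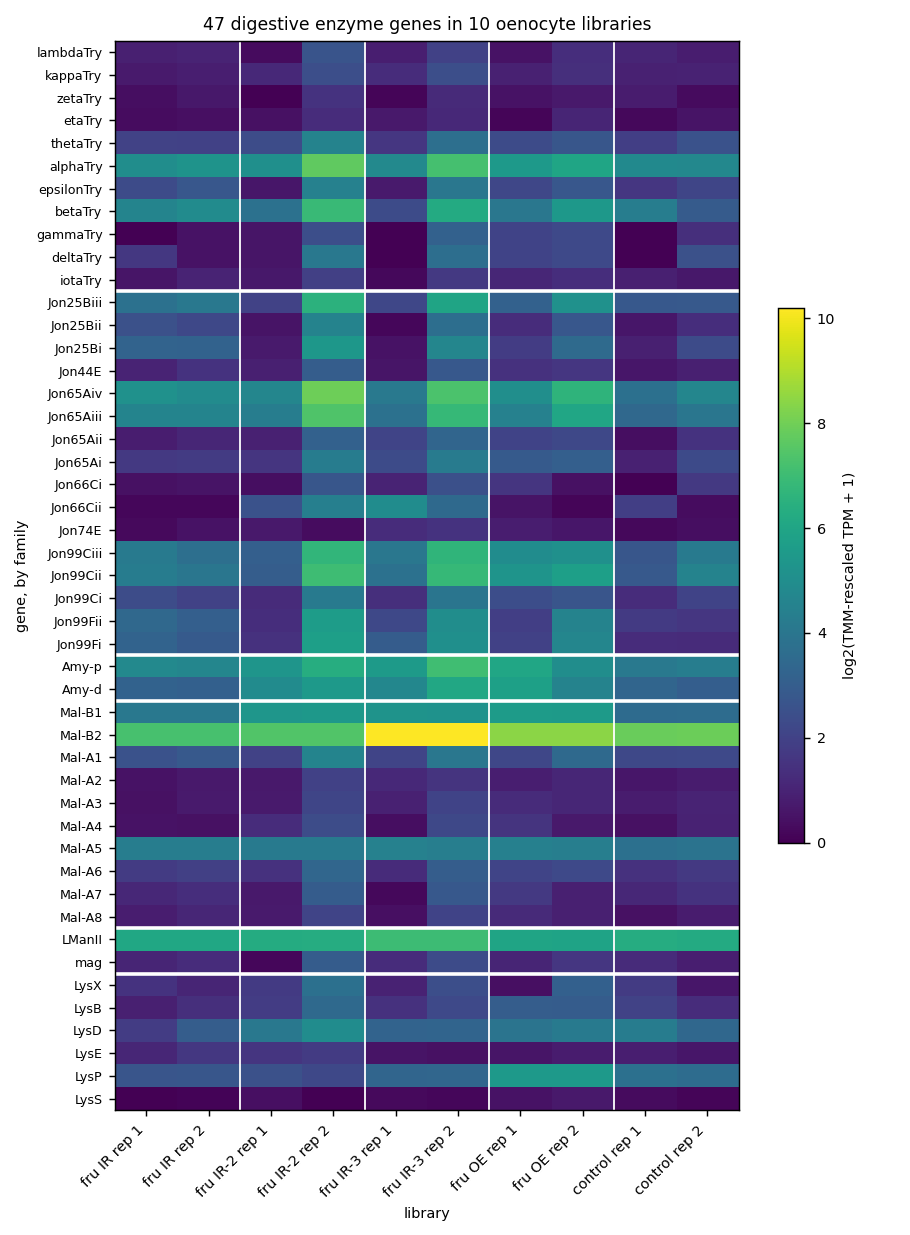
Level of each of the 47 digestive enzyme genes (vertical axis, by family) in each of the 10 libraries (horizontal axis), as log2 of the TMM-rescaled TPM plus 1. Most genes are brighter in replicate 2 of IR-2-labelled libraries and of oeno>fru IR-3 than in replicate 1, while Mal-B1, Mal-B2, Mal-A5, LManII and LysP look alike in both replicates of each genotype.

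Replicates of the same genotype disagreed over most of these genes in 2 RNAi lines. As a log2 ratio of TMM values plus 0.5, replicate 2 over replicate 1, the median of the 47 members was 2.33 in IR-2-labelled libraries and 2.02 in oeno>fru IR-3. It was 0.15 in IR-labelled libraries, 0.29 in oeno>fru OE and 0.23 in control. More than 2-fold higher in replicate 2 were 37 members in IR-2-labelled libraries, 34 in oeno>fru IR-3, 1 in IR-labelled libraries, 12 in oeno>fru OE, and 8 in control. Among all 9958 genes with a mean TMM value of 1 or more, 179 passed the same bound in IR-2-labelled libraries and 140 in oeno>fru IR-3. It was passed by 8 in IR-labelled libraries, 50 in oeno>fru OE and 44 in control. More than 2-fold lower in replicate 2 were 0 members in IR-2-labelled libraries and 1 in oeno>fru IR-3. It was 1 in IR-labelled libraries, 4 in oeno>fru OE and 3 in control. Among all those genes the counts lower were 24, 15, 27, 35 and 31 in the same order. The difference in the 2 RNAi lines was known when these genes were chosen, so it is given as a description.

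**Figure D2:**
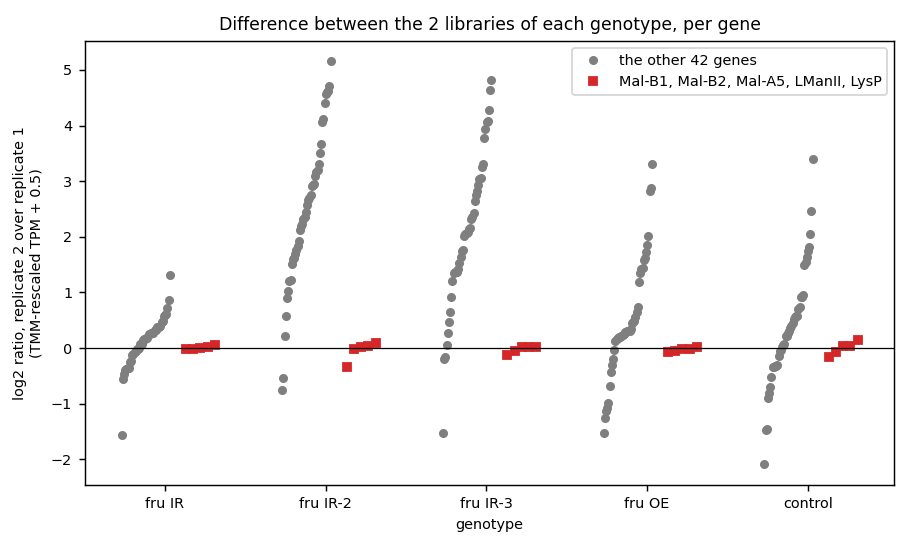
Log2 ratio of replicate 2 over replicate 1 (TMM-rescaled TPM plus 0.5, vertical axis) in each genotype (horizontal axis), 1 point per gene. The grey circles are 42 genes, with medians of 2.51 in IR-2-labelled libraries and 2.08 in oeno>fru IR-3. The red squares are the 5 steady genes, picked for agreeing replicates and so all near 0.

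Members were split by how closely their replicates agreed and by level, after the values had been seen. The genes Mal-B1, Mal-B2, Mal-A5, LManII and LysP had replicates within 1.5-fold in all 5 genotypes and a mean TMM value of at least 5, and are called steady. The other 42 members summed to 230 and 1627 TMM in replicates 1 and 2 of IR-2-labelled libraries, and to 243 and 1251 in oeno>fru IR-3. They summed to 266 and 270 in IR-labelled libraries, 392 and 604 in oeno>fru OE, against 167 and 209 in control. These sums describe genes set apart by their replicate spread or by a low level. All 47 members summed to 522 and 526 in IR-labelled libraries, 540 and 1939 in IR-2-labelled libraries, 1594 and 2615 in oeno>fru IR-3, 909 and 1113 in oeno>fru OE, against 512 and 558 in control, and the sums in oeno>fru IR-3 include 1157 and 1172 from Mal-B2. The 5 steady genes together had 310 and 312 in IR-2-labelled libraries, a ratio of 1.01. They were picked for agreeing replicates, so a ratio near 1 was set by that choice.

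Trypsins are encoded at one cluster on chromosome 2R, and all 11 lie between 11336840 and 11357537 (BDGP6.54 annotation). alphaTry, a major midgut trypsin, had TMM values of 30.6 and 36.8 in IR-labelled libraries, 32.6 and 208 in IR-2-labelled libraries, 26.9 and 147 in oeno>fru IR-3, 45.1 and 63.2 in oeno>fru OE, against 27.3 and 26.4 in control. Both oeno>fru OE libraries were above both control libraries, whereas in oeno>fru IR-3 replicate 1 was within 1 unit of control. In edgeR alphaTry rose in IR-labelled libraries (log2 fold change 0.35 ± 0.08 SE, adjusted p = 0.0016) and in oeno>fru OE (0.92 ± 0.12, adjusted p = 3.5e-05). In IR-2-labelled libraries the call (2.15 ± 0.70, adjusted p = 0.035) was 0.29 on the log2 scale with replicate 1 alone and 2.96 with replicate 2 alone.

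betaTry, its close paralogue and neighbour, had 23.2 and 29.2 TMM in IR-labelled libraries, 12.9 and 120 in IR-2-labelled libraries, 4.03 and 74.8 in oeno>fru IR-3, 15.3 and 41.7 in oeno>fru OE, against 19.0 and 6.57 in control. Its control libraries differed by more than those of alphaTry, and in the opposite sense to the discordant lines. edgeR called it higher in IR-labelled libraries (1.09 ± 0.26, adjusted p = 0.0025) and in oeno>fru OE (1.14 ± 0.43, adjusted p = 0.035). With 1 library left out the value ranged from 0.47, without control replicate 2, to 1.97, without control replicate 1, in IR-labelled libraries, and in oeno>fru OE from 0.16, without OE replicate 2, to 2.01, without control replicate 1. The call in oeno>fru OE was lost without OE replicate 2 and without control replicate 2, where the value was 0.52. gammaTry and deltaTry were listed at 0 in control replicate 1 and in oeno>fru IR-3 replicate 1, and RSEM divides reads among such near-identical copies. alphaTry and betaTry may share reads with them, as their expected counts were fractional too. In control replicate 1, alphaTry, betaTry, gammaTry and deltaTry had 478.48, 317.49, 0 and 0 expected counts. In control replicate 2 they had 582.39, 141, 32.15 and 97.45. The split among these genes, and thus the separate levels and calls of alphaTry and betaTry, is uncertain. As a family, the trypsins summed to 53.5 and 407 in IR-2-labelled libraries and to 36.7 and 281 in oeno>fru IR-3, against 54.9 and 50.6 in control.

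The 16 Jonah proteases showed the widest gap of any family in IR-2-labelled libraries. They summed to 76.4 and 980 TMM in IR-2-labelled libraries (ratio 12.8) and to 114.5 and 707 in oeno>fru IR-3 (ratio 6.17), against 51.7 and 107 in control. Jon65Aiv had 35.0 and 29.6 in IR-labelled libraries, 24.5 and 247 in IR-2-labelled libraries, 16.2 and 158 in oeno>fru IR-3, 31.5 and 98.4 in oeno>fru OE, against 12.7 and 24.4 in control. Its neighbour Jon65Aiii followed the same order, with 23.4 and 23.6 in IR-labelled libraries, 19.0 and 167 in IR-2-labelled libraries, 13.1 and 112 in oeno>fru IR-3, 21.1 and 64.5 in oeno>fru OE, against 10.01 and 15.2 in control. Both genes had all libraries of oeno>fru OE and of IR-labelled libraries above both control libraries, and both rose there in edgeR. For Jon65Aiii the log2 fold change was 0.88 ± 0.13 (adjusted p = 2.8e-05) in IR-labelled libraries and 1.68 ± 0.39 (adjusted p = 0.0023) in oeno>fru OE. For Jon65Aiv it was 0.77 ± 0.18 (adjusted p = 0.0019) in IR-labelled libraries and 1.72 ± 0.41 (adjusted p = 0.0031) in oeno>fru OE. Without OE replicate 2 the values in oeno>fru OE were 0.61 for Jon65Aiii and 0.62 for Jon65Aiv, and without OE replicate 1 they were 2.20 and 2.24.

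The neighbours Jon99Fi and Jon99Fii had like levels. Jon99Fi had 8.49 and 6.50 TMM in IR-labelled libraries, 1.75 and 52.9 in IR-2-labelled libraries, 6.90 and 32.5 in oeno>fru IR-3, 2.93 and 24.7 in oeno>fru OE, against 1.46 and 1.42 in control. Jon99Fii had 9.88 and 7.502 in IR-labelled libraries, 1.51 and 48.7 in IR-2-labelled libraries, 3.59 and 30.8 in oeno>fru IR-3, 2.72 and 22.5 in oeno>fru OE, against 2.29 and 2.03 in control. These closely related copies may share reads, so they are not counted as separate support for each other. Jon66Cii, named after its values were seen, went the other way in oeno>fru IR-3, with 30.3 in replicate 1 and 10.2 in replicate 2, against 2.74 and 0.262 in control. Its values were 0.133 and 0.126 in IR-labelled libraries, 4.96 and 20.2 in IR-2-labelled libraries, and 0.452 and 0.0950 in oeno>fru OE. With 0.5 added to TMM values, it was the only member more than 2-fold lower in replicate 2 of either discordant line. Jon66Cii may share reads with its neighbour Jon66Ci, so the split between them is uncertain. In control replicates 1 and 2, Jon66Cii had 46 and 5.52 expected counts, while Jon66Ci had 0 and 48.48.

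Amylases departed from most of the proteases in oeno>fru OE. Amy-p, the proximal copy of the amylase gene pair, had 27.0 and 24.6 TMM in IR-labelled libraries, 39.3 and 80.9 in IR-2-labelled libraries, 45.6 and 133 in oeno>fru IR-3, 65.1 and 30.7 in oeno>fru OE, against 16.3 and 19.1 in control. Every RNAi and OE library was above both control libraries. Amy-d, the distal copy, had 8.30 and 7.70 in IR-labelled libraries, 29.2 and 43.8 in IR-2-labelled libraries, 25.4 and 69.0 in oeno>fru IR-3, 54.6 and 22.6 in oeno>fru OE, against 9.14 and 7.35 in control. In oeno>fru OE replicate 1 was the higher library for both amylases, whereas replicate 2 was higher for Jon65Aiv, Jon65Aiii, Jon99Fi and Jon99Fii. That order was not particular to amylases. Replicate 1 of oeno>fru OE was also higher for some members at lower levels, among them Jon66Ci (1.998 and 0.368), Jon66Cii, Jon74E, Mal-A4 (1.904 and 0.599) and Mal-A7 (2.208 and 0.872).

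Both amylases rose in 3 comparisons, whichever library was left out. For Amy-p the edgeR log2 fold change was 1.75 ± 0.29 (adjusted p = 0.0016) in IR-2-labelled libraries, 2.29 ± 0.43 (adjusted p = 0.0021) in oeno>fru IR-3 and 1.26 ± 0.26 (adjusted p = 0.0012) in oeno>fru OE. For Amy-d it was 2.14 ± 0.19 (adjusted p = 4.6e-05) in IR-2-labelled libraries, 2.49 ± 0.41 (adjusted p = 0.00098) in oeno>fru IR-3 and 2.07 ± 0.33 (adjusted p = 0.00016) in oeno>fru OE. In IR-labelled libraries, Amy-p rose by 0.55 ± 0.07 (adjusted p = 7.4e-06) and Amy-d had -0.03 ± 0.10 (adjusted p = 0.84). For Amy-p the value with replicate 1 alone was 1.15 in IR-2-labelled libraries, 1.35 in oeno>fru IR-3 and 1.75 in oeno>fru OE, and with replicate 2 alone it was 2.19, 2.86 and 0.66 in the same order. The 2 copies are near-identical, so how reads were divided between them is uncertain.

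**Figure D3:**
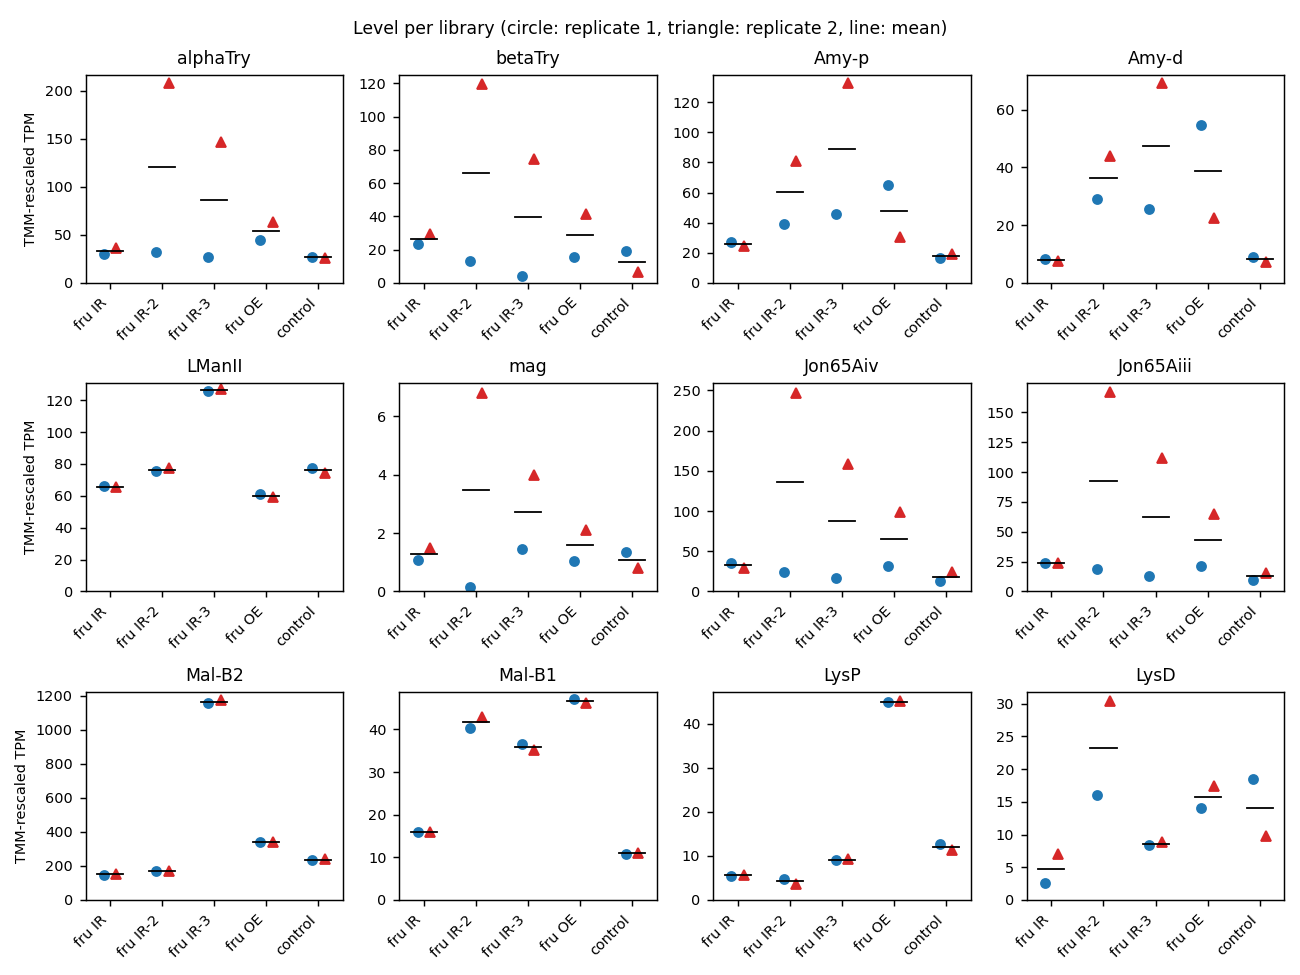
TMM-rescaled TPM (vertical axis, from 0) of 12 genes in each genotype (horizontal axis). Blue circles are replicate 1, red triangles replicate 2 and lines the mean of the 2. Replicates coincide for Mal-B2, Mal-B1, LManII and LysP and lie far apart for alphaTry, betaTry, Jon65Aiv and Jon65Aiii in IR-2-labelled libraries and in oeno>fru IR-3.

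Maltases differed in whether their replicates agreed. Mal-B2, on chromosome 2L at 11849958 to 11852881, was the most abundant member in every library except IR-2-labelled replicate 2, where Jon65Aiv and alphaTry were above it. It had 149 and 150 TMM in IR-labelled libraries, 173 and 171 in IR-2-labelled libraries, 1157 and 1172 in oeno>fru IR-3, 343 and 339 in oeno>fru OE, against 232 and 238 in control. No library of one genotype overlapped another. In edgeR it rose in oeno>fru IR-3 (2.28 ± 0.02, adjusted p = 7.2e-11) and in oeno>fru OE (0.43 ± 0.02, adjusted p = 1.7e-09). It fell in IR-labelled libraries (-0.65 ± 0.02, adjusted p = 4.2e-12) and in IR-2-labelled libraries (-0.44 ± 0.02, adjusted p = 6.8e-07).

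Its neighbour Mal-B1, at 11847226 to 11849169, had another pattern. It had 16.0 and 15.9 TMM in IR-labelled libraries, 40.4 and 42.9 in IR-2-labelled libraries, 36.6 and 35.3 in oeno>fru IR-3, 47.1 and 46.3 in oeno>fru OE, against 10.8 and 11.1 in control. All 8 RNAi and OE libraries exceeded both control libraries. It rose by 0.56 ± 0.06 in IR-labelled libraries (edgeR, adjusted p = 1.2e-06), 1.93 ± 0.05 in IR-2-labelled libraries (adjusted p = 5.9e-08), 1.69 ± 0.05 in oeno>fru IR-3 (adjusted p = 3.3e-08) and 1.97 ± 0.05 in oeno>fru OE (adjusted p = 2.3e-12), on the log2 scale. Both Mal-B genes overlap Pde1c, and whether strand was used in counting is not given in the sources used here.

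The 8 Mal-A genes lie together on chromosome 2R, between 8449664 and 8473961. Mal-A5 alone among them was steady, with 19.0 and 19.3 TMM in IR-labelled libraries, 16.7 and 16.9 in IR-2-labelled libraries, 21.5 and 19.7 in oeno>fru IR-3, 20.8 and 19.7 in oeno>fru OE, against 12.5 and 13.8 in control. It rose in all 4 comparisons, by log2 fold changes of 0.35 to 0.62. Mal-A1 instead had 3.05 and 23.3 in IR-2-labelled libraries and 3.27 and 15.6 in oeno>fru IR-3, against 3.64 and 3.79 in control. Thus genes a few kilobases apart differed in whether the replicates agreed.

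LManII, an alpha-mannosidase gene on chromosome 2L, had 66.0 and 65.6 TMM in IR-labelled libraries, 75.3 and 77.7 in IR-2-labelled libraries, 126 and 127 in oeno>fru IR-3, 61.0 and 59.1 in oeno>fru OE, against 77.7 and 74.2 in control. It rose in oeno>fru IR-3 (0.71 ± 0.03, adjusted p = 6.4e-08) and fell in oeno>fru OE (-0.47 ± 0.03, adjusted p = 2.0e-08). In IR-labelled libraries it fell (-0.19 ± 0.03, adjusted p = 1.6e-05), but scaling by library size alone gave 0.02. In IR-2-labelled libraries it had 0.01 ± 0.03 (adjusted p = 0.87).

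mag (magro), the lipase gene, was low throughout. It had 1.08 and 1.48 TMM in IR-labelled libraries, 0.145 and 6.80 in IR-2-labelled libraries, 1.44 and 3.99 in oeno>fru IR-3, 1.05 and 2.10 in oeno>fru OE, against 1.36 and 0.796 in control. edgeR called it only in oeno>fru IR-3 (1.31 ± 0.46, adjusted p = 0.043), and with replicate 1 alone the value there was 0.43. In IR-2-labelled libraries the single-library values were -2.82 and 2.68 with replicates 1 and 2. Its span overlaps atk.

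Among lysozymes, LysP was higher in oeno>fru OE and lower in the RNAi lines. LysP had 5.50 and 5.71 TMM in IR-labelled libraries, 4.77 and 3.65 in IR-2-labelled libraries, 9.08 and 9.23 in oeno>fru IR-3, 44.8 and 45.2 in oeno>fru OE, against 12.6 and 11.2 in control. It rose in oeno>fru OE (1.82 ± 0.09, adjusted p = 2.2e-09) and fell in all 3 RNAi lines, by 1.07 ± 0.14 (adjusted p = 1.4e-05) in IR-labelled libraries, by 1.49 ± 0.19 (adjusted p = 0.00040) in IR-2-labelled libraries, and by 0.41 ± 0.14 (adjusted p = 0.035) in oeno>fru IR-3. The last call was lost whichever library was left out, with values of -0.49 to -0.32 and adjusted p of 0.0598 to 0.198 in edgeR, and DESeq2 gave an adjusted p of 0.254.

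LysD, a midgut lysozyme, had 2.54 and 7.07 TMM in IR-labelled libraries, 16.0 and 30.4 in IR-2-labelled libraries, 8.42 and 8.80 in oeno>fru IR-3, 14.0 and 17.4 in oeno>fru OE, against 18.4 and 9.70 in control. edgeR called it lower in IR-labelled libraries (-1.46 ± 0.35, adjusted p = 0.0023), with values of -0.96 without IR-labelled replicate 1 and -2.45 without IR-labelled replicate 2. LysB, LysD and LysE are close copies that may share reads, and 5 of the 6 lysozymes overlap mwh. LysS had at most 7 counts in any library and was tested in no comparison.

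**Figure D4:**
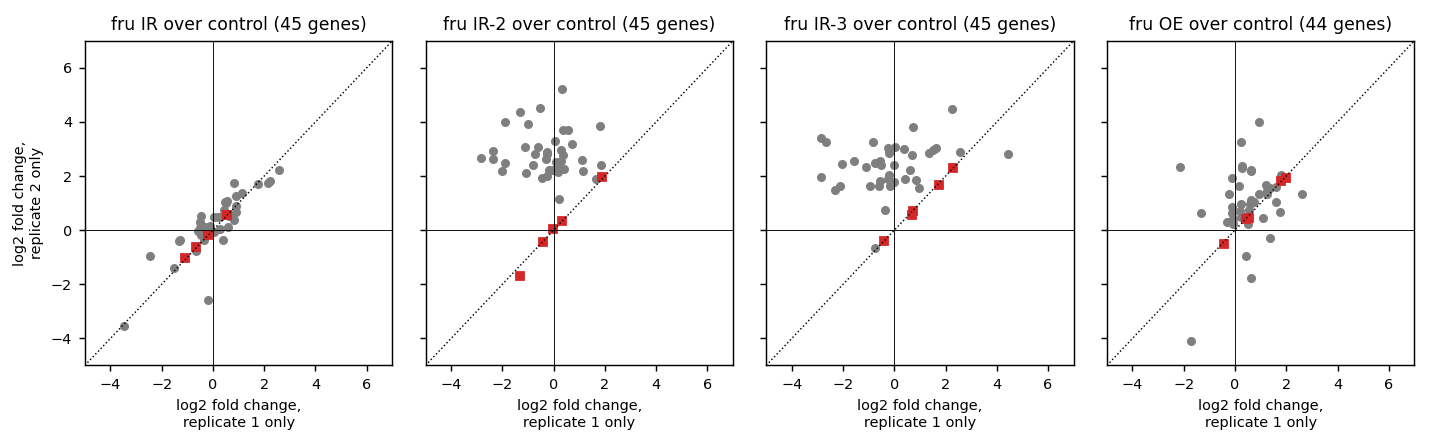
Log2 fold change over control of each digestive enzyme gene tested with replicate 1 of the genotype alone (horizontal axis) against replicate 2 alone (vertical axis), each with both control libraries. Red squares are the 5 steady genes, picked for agreeing replicates and so on the dotted line of equality. Most grey circles lie above the line in IR-2-labelled libraries and in oeno>fru IR-3, with Jon66Cii below it in oeno>fru IR-3, and the medians over the genes tested were -0.10 and -0.22 with replicate 1 alone and 2.56 and 2.35 with replicate 2 alone.

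Over all members, the 4 comparisons with control share the same 2 control libraries and are not independent. In IR-labelled libraries, 42 members were tested, 18 were called higher (42.9%) and 4 lower (9.52%), at an adjusted p under 0.05 in edgeR. Over all 11729 genes tested there, 31.7% were called higher and 30.6% lower. The median log2 fold change was 0.23 for members and -0.01 for all genes. Those called higher were 8 Jonah proteases, 5 maltases, 3 trypsins, Amy-p and LysE. Those called lower were Mal-B2, LManII, LysP and LysD. With the spread taken from all 10 libraries, 3 of 46 members were called higher and 4 lower, beside 3570 and 3326 of all 12062 genes tested. The count lower also depended on which library was left out.

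In IR-2-labelled libraries, 44 members were tested, with 14 higher (31.8%) and 2 lower (4.55%), beside 26.0% and 23.9% of all 11464 genes tested. The share called higher was thus near that of all genes, although the median log2 fold change was 1.81 for members and -0.02 for all genes. The SE was 0.70 for alphaTry, whose replicates differed, and 0.05 for Mal-B1, whose replicates were alike. With replicate 1 alone 9 of 46 members were called higher and 9 lower, beside 24.8% and 22.4% of all genes, and with replicate 2 alone 42 of 45 were called higher, beside 24.5% of all genes. Amy-d, Amy-p, Mal-A5 and Mal-B1 were called higher, and LysP and Mal-B2 lower, with all 4 libraries and without each of them in turn. Without control replicate 1 the count higher was 6, and without control replicate 2 it was 5.

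In oeno>fru IR-3, 45 members were tested, with 17 higher (37.8%) and 1 lower (2.22%), beside 26.0% and 26.7% of all 11472 genes tested. The median log2 fold change was 1.60 for members. With replicate 1 alone 12 of 46 members were called higher and 8 lower, with a median of -0.22, beside 23.7% and 23.3% of all genes, and with replicate 2 alone 41 of 45 were called higher, beside 24.4% of all genes. Members called higher with all 4 libraries and without each in turn were Amy-d, Amy-p, Jon66Cii, Jon74E, Jon99Fi, LManII, Mal-A2, Mal-A5, Mal-B1 and Mal-B2. The share of all genes called so was not computed. Some members changed sign when 1 library was left out, with log2 fold changes of -1.59 to 2.57 for betaTry and -0.24 to 3.02 for Jon65Aiv. Without control replicate 1 the count higher was 10. LysP was the member called lower, as described above.

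In oeno>fru OE, 43 members were tested, with 23 higher (53.5%) and 1 lower (2.33%), beside 31.4% and 33.7% of all 11601 genes tested. The median log2 fold change was 0.92 for members and 0.04 for all genes. The higher members were 12 Jonah proteases, 4 maltases, 3 trypsins, both amylases, and LysB and LysP, and the lower one was LManII. Without OE replicate 1 the count lower was 3. Amy-d, Amy-p, Mal-B1, Mal-B2, LysP and others were called higher with all 4 libraries and without each in turn, and LManII was called lower in all of those fits. The share of all genes called so was not computed. With the spread taken from all 10 libraries, 7 of 46 members were called higher, beside 3520 of all 12062 genes tested. Both libraries of oeno>fru OE lay above both control libraries for 28 of the 47 members and below them for 1, beside 43.8% and 30.3% of all 13986 genes. In IR-labelled libraries it was 18 above and 8 below (35.9% and 36.7% of all genes), in IR-2-labelled libraries 13 and 2 (33.2% and 35.0%), while oeno>fru IR-3 had 16 and 3 (34.9% and 32.9%).

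Few members passed a stricter threshold of a 4-fold change. The study selected genes at a 4-fold change and p no higher than 0.001, and whether that p was adjusted is not given in the sources used here, so both readings were run in edgeR, the unadjusted one added after the values were seen. At an adjusted p up to 0.001, Jon99Fi and Jon99Fii passed as higher in IR-labelled libraries, where 1.69% of all genes passed as higher and 1.08% as lower. Amy-d passed in IR-2-labelled libraries (1.05% and 0.698% of all genes) and in oeno>fru OE (1.34% and 2.79%). Amy-d, Mal-B2 and Jon74E passed in oeno>fru IR-3 (0.619% and 0.732%). At an unadjusted p up to 0.001, Amy-p, Jon66Cii and Jon99Fi passed as well in oeno>fru IR-3, giving 6 members (0.724% and 0.811% of all genes). In the other comparisons that reading gave the same members, beside 1.82% and 1.11% of all genes in IR-labelled libraries, 1.43% and 0.75% in IR-2-labelled libraries, and 1.43% and 2.87% in oeno>fru OE. Jon74E is a low gene, with 31 and 34 counts in oeno>fru IR-3, against 3 and 7 in control.

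The RNAi lines were also compared with each other, a comparison added after the values were seen. Between IR-labelled libraries and IR-2-labelled libraries, 13 of 44 members were called, 1 higher and 12 lower, where 51.7% of all genes were called in either direction. Between IR-labelled libraries and oeno>fru IR-3 it was 1 higher and 16 lower of 45 (56.6% of all genes). Between IR-2-labelled libraries and oeno>fru IR-3 it was 3 higher and 5 lower of 46 (36.3% of all genes). Jon66Cii, which may share reads with Jon66Ci, had 3.25 and 4.22 expected counts in IR-labelled libraries. It differed by -7.32 ± 0.72 for IR-labelled libraries over oeno>fru IR-3 (edgeR, adjusted p = 5.7e-05) and by -6.60 ± 0.84 over IR-2-labelled libraries (adjusted p = 0.00044). Its difference between IR-2-labelled libraries and oeno>fru IR-3 was -0.70 ± 0.71 (adjusted p = 0.50). Mal-B2 differed by -2.94 ± 0.02 for IR-labelled libraries over oeno>fru IR-3 (adjusted p = 8.8e-11) and by -2.74 ± 0.02 for IR-2-labelled libraries over oeno>fru IR-3 (adjusted p = 2.9e-08).

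Genes outside the rule were read from a list of 29 other digestion and gut secreted genes. Of these, 16 were more than 2-fold higher in replicate 2 of IR-2-labelled libraries and 11 in oeno>fru IR-3. Among the 9958 genes with a mean TMM value of 1 or more, a bound not set on this list, it was 179 and 140. In IR-labelled libraries 0 list genes passed, with 3 in oeno>fru OE and 3 in control. More than 2-fold lower in replicate 2 were 2 in oeno>fru OE and 1 in control. Bace, an aspartic protease gene, had 9.63 and 13.8 TMM in IR-labelled libraries, 5.60 and 64.4 in IR-2-labelled libraries, 1.06 and 48.8 in oeno>fru IR-3, 14.1 and 20.6 in oeno>fru OE, against 8.28 and 7.11 in control. LManVI, a paralogue of LManII, had 0.245 and 8.66 in IR-2-labelled libraries and 0.188 and 7.24 in oeno>fru IR-3, against 0.427 and 1.70 in control, so that 2 mannosidases of the same family differed in how their replicates agreed. The serine protease gene yip7 had 14.2 and 16.5 in IR-labelled libraries, 114 and 361 in IR-2-labelled libraries, 316 and 205 in oeno>fru IR-3, 31.8 and 41.3 in oeno>fru OE, against 51.5 and 10.9 in control.

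Not every carbohydrate gene of that list had discordant replicates. The alpha-glucosidase gene tobi, a target of insulin signalling, had 54.5 and 54.1 TMM in IR-labelled libraries, 323 and 322 in IR-2-labelled libraries, 324 and 334 in oeno>fru IR-3, 175 and 176 in oeno>fru OE, against 94.3 and 95.1 in control. The order of tobi differed from that of Mal-B2, which was below control in IR-2-labelled libraries. In edgeR, 11 of the 23 list genes tested were called higher and 2 lower in IR-2-labelled libraries, beside 26.0% and 23.9% of all genes. In IR-labelled libraries 4 of 25 were called higher and 3 lower, beside 31.7% and 30.6% of all genes. With 24 tested in each, 9 were called higher and 2 lower in oeno>fru IR-3 (26.0% and 26.7% of all genes). In oeno>fru OE it was 7 and 3 (31.4% and 33.7%).

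Markers of other tissues were set beside the gap between replicates. The midgut structure and regulator list was 1.45 times higher in replicate 2 of IR-2-labelled libraries, 1.25 times in oeno>fru IR-3 and 1.315 times in oeno>fru OE. Its ratio was 0.997 in IR-labelled libraries and 1.03 in control. Within it mesh and Tsp2A, septate junction genes of the gut, had 1.99 and 4.08, and 3.63 and 6.91, in IR-2-labelled libraries. In oeno>fru OE they had 1.14 and 2.26, and 5.07 and 7.78. The ratio for the summed level of all 47 digestive enzyme genes was 3.59 in IR-2-labelled libraries, 1.64 in oeno>fru IR-3 and 1.225 in oeno>fru OE, against 1.09 in control. For the 42 left after the 5 steady genes were taken out, a choice that raises the ratio, it was 7.06, 5.15 and 1.54, against 1.25 in control. In the same order, it was 0.972, 0.985 and 1.005 for the oenocyte list, and 1.01, 1.07 and 1.04 for the Malpighian tubule list. For muscle it was 0.977, 1.01 and 0.977, and for the accessory gland list 0.770, 0.736 and 0.344. For enteroendocrine peptides, at summed levels of 2.11 to 4.77, it was 1.41, 1.38 and 1.11. The part of gut RNA in the differences between replicates or genotypes was not tested.

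**Figure D5:**
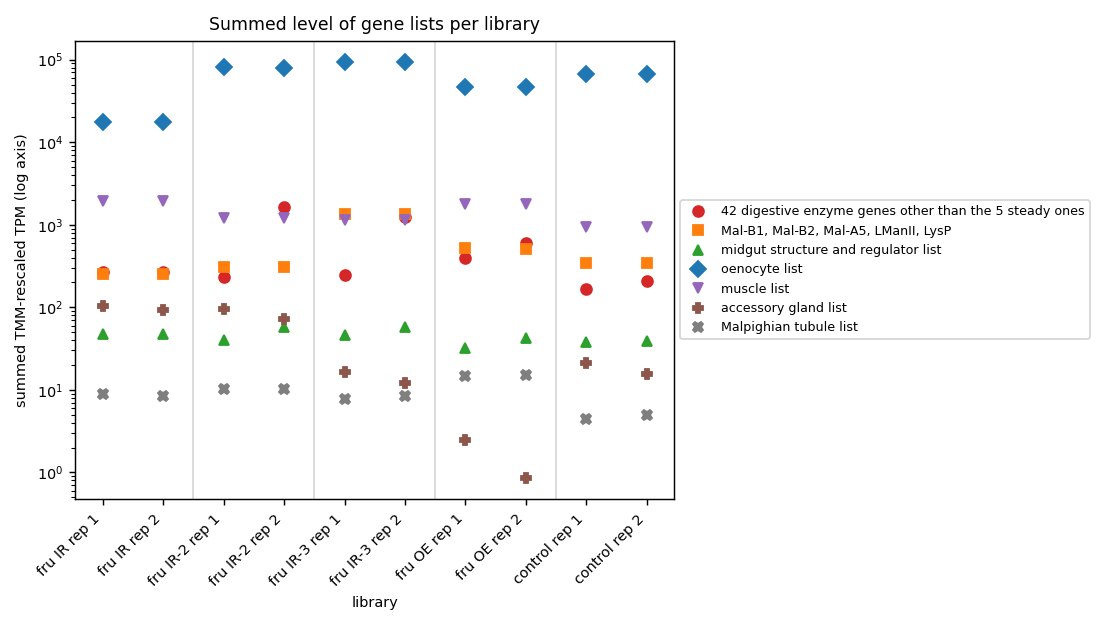
Summed TMM-rescaled TPM (vertical axis, log scale) of gene lists in each of the 10 libraries (horizontal axis). The 42 digestive enzyme genes other than the steady ones (red) reach 1627 and 1251 in replicate 2 of IR-2-labelled libraries and of oeno>fru IR-3. They lie between 167 and 604 in the other libraries, while the oenocyte list (blue) is level within each genotype.

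Between genotypes, other markers moved as well. The oenocyte list summed to 17439 and 17459 TMM in IR-labelled libraries and 46601 and 46837 in oeno>fru OE, against 66670 and 67122 in control. It summed to 81069 and 78777 in IR-2-labelled libraries, and to 94838 and 93447 in oeno>fru IR-3. All 8 of its genes were called lower in IR-labelled libraries and in oeno>fru OE, beside 30.6% and 33.7% of all genes. In IR-2-labelled libraries 4 were called higher and 2 lower (26.0% and 23.9% of all genes). In oeno>fru IR-3 it was 5 and 2 (26.0% and 26.7%). The muscle list summed to 1947 and 1946 in IR-labelled libraries, 1804 and 1762 in oeno>fru OE, against 931 and 941 in control. It summed to 1222 and 1194 in IR-2-labelled libraries, and to 1136 and 1145 in oeno>fru IR-3. The accessory gland list summed to 104 and 93.7 in IR-labelled libraries, 94.8 and 73.0 in IR-2-labelled libraries, 16.7 and 12.2 in oeno>fru IR-3, 2.47 and 0.851 in oeno>fru OE, against 21.3 and 15.6 in control. The Malpighian tubule list summed to 8.95 and 8.49 in IR-labelled libraries, 10.2 and 10.3 in IR-2-labelled libraries, 7.82 and 8.40 in oeno>fru IR-3, 14.7 and 15.3 in oeno>fru OE, against 4.41 and 4.92 in control. The part of these lists in the digestive enzyme differences was not tested.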

How the data were processed

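Per the labels and the study's methods, the authors trimmed reads with fastp (0.22.0), mapped them with Bowtie2, and estimated gene abundance with RSEM (1.2.31). Reads shared by similar genes are divided in the expected counts, which the authors deposited without normalization. The deposited TPM table holds the authors' RSEM abundances and was used to check the TMM table. The deposited signal table is TPM multiplied by 1 TMM factor per library by the authors with edgeR (3.36.0). The annotation used for counting is not given in the sources used here. Names and positions came from BDGP6.54 and RefSeq, and 13983 of 13986 gene identifiers had a position.

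These counts were rounded here, and every genotype was set against control in edgeR (4.0.16, R 4.3.3) on the 4 libraries of the comparison, with filterByExpr (minimum count 10, minimum total 15), TMM, glmQLFit and glmQLFTest, and Benjamini-Hochberg adjustment over all genes tested. SE is the log2 fold change divided by the square root of the F statistic. The script was tested on simulated data. A filter on low counts keeps some members through the genotype where they are high. DESeq2 (1.42.0), limma (3.58.1), other filters, other scaling, the replicate number as a block and leaving out each library were tried as alternatives.

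Replicates of each genotype differed by more than sampling noise (chi-square per gene of 2.05 to 6.66), so none was counted as a repeat deposit. The study describes 2 replicates per genotype as biological. The members and gene lists were chosen with earlier results of these data known. Genes given library by library were alphaTry, betaTry, Amy-p, Amy-d, LManII, mag and, in each family, the 2 members with the highest TMM value; others were named for extremes after their values were seen. Positions are 1-based. Overlaps include Jon44E with CG8586, deltaTry with CG13202, Mal-A1 with Cyp4e1 and Mal-A8 with mtt. No sequences are shown. Lists of fat body, hemocyte, neuron, testis, and salivary gland and crop genes were also read, and their summed levels differed between replicates by ratios of 0.907 to 1.28. The accessory gland list had ratios of 0.344 to 0.902.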

Additional observations from a re-analysis of the deposited data

Results flagged for a closer look

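Effects of the RNAi lines on 2 steady genes differed by a direct edgeR test of the lines against each other, and went in opposite directions against control. Mal-B2 differed by -2.943 ± 0.0187 in log2 fold change (± SE, adjusted p = 8.81e-11) for IR-labelled libraries over oeno>fru IR-3, and by -2.738 ± 0.0162 (adjusted p = 2.85e-08) for IR-2-labelled libraries over oeno>fru IR-3. Both libraries of each of the first lines were lower than both control libraries, and both oeno>fru IR-3 libraries were higher. LManII differed by -0.9216 ± 0.0170 (adjusted p = 3.16e-09) for IR-labelled libraries over oeno>fru IR-3, with 2 of 2 libraries lower in the one line and 2 of 2 higher in the other than both control libraries. With scaling by library size alone, LManII had 0.021 over control in IR-labelled libraries, so its direction there depends on the scaling.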

How the results depend on the processing

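Counts of members called depended on which libraries were used and on the model. Leaving out each library in turn, members called higher and lower ranged from 14 to 24 and 5 to 13 in IR-labelled libraries (18 and 4 with all), 5 to 42 and 2 to 9 in IR-2-labelled libraries (14 and 2), 10 to 41 and 0 to 8 in oeno>fru IR-3 (17 and 1), and 17 to 28 and 1 to 3 in oeno>fru OE (23 and 1). The medians ranged from 0.046 to 0.61, -0.10 to 2.56, -0.22 to 2.35 and 0.54 to 1.40. DESeq2 called 11, 6, 11 and 12 of 47 members higher in the same order. Over all genes it was 2900 of 12867, 2351 of 12516, 2233 of 11719 and 2598 of 12832. In oeno>fru IR-3 it called 0 members lower, beside 2055 of 11719 genes, and 1 member was lower at an unadjusted p under 0.05. The spread from all 10 libraries gave 3 higher in IR-labelled libraries, 11 in oeno>fru IR-3 and 7 in oeno>fru OE. limma on log2 values plus 1 and plus 0.1 gave 5 and 5 of 44 higher in IR-2-labelled libraries, beside 2642 and 2626 of 11464 genes. In oeno>fru IR-3 it gave 10 and 10 of 45, beside 2769 and 2773 of 11472 genes. In oeno>fru OE, plus 0.1 gave 15 of 43, beside 4196 of 11601 genes. A 4-fold change at an adjusted p up to 0.001 gave 2, 1, 3 and 1 higher and 0 lower in each in edgeR, where 5, 2, 2 and 1 were lower at an unadjusted p under 0.05 with no fold bound. With an unadjusted p up to 0.001, added after the values were seen, it gave 2, 1, 6 and 1 higher and again 0 lower.

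Replicate numbers were treated as names in the main fits. Correlations of same-numbered deviations were 0.04 to 0.17 over 2 pairs, positive in every comparison with control. Whether libraries of the same number shared a source of difference was not tested. A replicate block gave 30 of 44 higher in IR-2-labelled libraries, beside 3008 of 11464 genes. In oeno>fru IR-3 the block gave 33 higher and 2 lower of 45, beside 3029 and 3062 of 11472 genes. In oeno>fru IR-3, library size alone and a minimum of 10 counts in every library each gave 2 lower, beside 3861 of 11472 and 2999 of 10774 genes. In oeno>fru OE, no filter gave 2 lower, beside 3986 of 13625 genes. In IR-labelled libraries, library size alone gave a median of 0.44 and the minimum of 10 counts 0.36. Scaling by library size moved the median of all genes to 0.21 in IR-labelled libraries, -0.18 in IR-2-labelled libraries, -0.10 in oeno>fru IR-3 and 0.21 in oeno>fru OE. Under it Amy-d had 0.19 and LManII 0.021 in IR-labelled libraries, and LManII -0.16 in IR-2-labelled libraries, where no filter gave -0.0089.

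Some genes also changed sign when 1 library was left out. In IR-labelled libraries, Amy-d ranged from -0.19 to 0.12 and mag from -0.059 to 0.71. In IR-2-labelled libraries, LManII ranged from -0.035 to 0.036 and mag from -2.82 to 2.68. In oeno>fru IR-3, alphaTry ranged from -0.0099 to 2.42, betaTry from -1.59 to 2.57 and Jon65Aiv from -0.24 to 3.02. In oeno>fru OE, mag ranged from -0.13 to 0.89 and LysD from -0.31 to 0.59. Of the 461 values of single genes under the other alternatives, 393 kept direction and side of the threshold, and of 232 with 1 library left out, 187 did. The causes of these shifts were not tested. Members with few counts have wide errors, and counting errors do not cover the spread between replicates.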
